A study of Homo sapiens with 6 samples.

Results

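Forkhead (FOX) transcription factors were examined in hTERT RPE1 cells, a human line from the retinal pigment epithelium that is established in culture and was immortalised with telomerase. The members were all rows whose symbol is FOX, a letter from A to S, a number and at most 1 more letter and digit, which gave 54 of the 38900 gene rows. Of these, 26 averaged 10 or more normalized counts across the 6 libraries and were tested, and 28 did not. The study compared 3 polyA RNA sequencing libraries of cells given 100 nM combretastatin A4 (CA4) with 3 of cells given 0.1% DMSO, both for 6 hours in fresh medium. Before that, every culture had stayed fully confluent for 5 days, a state in which the cells become quiescent. CA4 attaches to the colchicine site of tubulin and so takes microtubules apart, and the comparison asks which transcripts change when this happens in confluent cells. Whether all of these cells had stopped dividing was not tested. The labels do not say that the replicates are separate cultures, so p-values measure the spread between these libraries, which may be technical.

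Forkhead proteins share a winged-helix domain that places a recognition helix in the major groove of DNA. FOXO proteins keep quiescent cells out of the cycle and are held in the cytoplasm when the kinases AKT and SGK phosphorylate them, while FOXM1 drives the genes of mitosis. FOXC1 and FOXC2 act in mesenchyme, and loss of 1 copy of FOXC1 malforms the front of the eye. Many other members act in 1 lineage, such as FOXA1 in endoderm, FOXL2 in the ovary and FOXJ1 in cells with motile cilia.

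The DNA-binding domain is what the members have in common, and its coding sequence is shown for 4 of the genes described below. A stretch of the recognition helix of fixed pattern was found in the longest coding sequence of 43 of the 50 members that GENCODE 29 lists as protein-coding. The other 4 members, FOXO3B, FOXO1B, FOXN3P1 and FOXN3P2, are listed there as processed pseudogenes. Capitals mark the 18 bases that code for this stretch, within 60 coding bases of the GENCODE 29 transcripts.
FOXL1: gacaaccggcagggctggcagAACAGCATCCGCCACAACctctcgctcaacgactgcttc
FOXS1: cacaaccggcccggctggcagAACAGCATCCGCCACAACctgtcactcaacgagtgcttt
FOXK1: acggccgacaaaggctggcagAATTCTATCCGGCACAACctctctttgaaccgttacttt
FOXO3: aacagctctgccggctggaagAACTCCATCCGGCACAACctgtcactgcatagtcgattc
FOXL1 and FOXS1 carry the same 18 capital bases, while those of FOXK1 and FOXO3 differ from them and from each other. Over whole transcripts likeness was rare. Among the 26 tested members, the 5 with the largest share of 50-base words also found in another GENCODE 29 gene were FOXO3B (64.2%), FOXD4 (63.1%), FOXD4L5 (60.5%), FOXD4L1 (58.3%) and FOXO3 (27.8%), and their counts depend on how shared reads were assigned.

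The table holds reads per gene divided by 1 factor for each library, called normalized counts here, and a value after ± is the SD over the 3 libraries of a group. The libraries held between 19524936 and 22538004 recovered reads, so that 1 read was worth 0.935 to 1.12 normalized counts. A value of 0 allows up to 3 reads, for counting error only. Markers of the pigment epithelium were uneven: the keratins KRT8 and KRT18 stood at 14575 ± 482 and 9244 ± 1035 normalized counts in DMSO, but TYR, TYRP1, RLBP1 and LRAT were below a mean of 10. Of 8 tested markers of the pigment epithelium limma called 1 lower and 0 higher, edgeR the same numbers and DESeq2 2 lower and 1 higher. The limma call was OTX2, at 423, 630 and 547 in DMSO and 226, 255 and 251 in CA4, and limma, edgeR and DESeq2 called 4.94%, 4.62% and 12.3% of all genes they tested. The OTX2 call held without DMSO replicate 1 or CA4 replicate 2 and was lost without any other library and without the variance trend, and its part in the results below was not tested. Mesenchymal markers were uneven too. In DMSO, COL1A1 stood at 49885 ± 13678, THY1 at 8679 ± 498 and PDGFRB at 5463 ± 1395, but COL1A2 at 31.5 ± 25.1 and LUM at 38.4 ± 25.3. Endothelial markers ran from 647 ± 126 for VWF to 65.4 ± 17.9 for TEK in DMSO. The 5 leukocyte markers were near 0, with a summed level of 3.74 to 4.83 normalized counts in DMSO and 5.61 to 10.6 in CA4, and CD3E and ITGAM were among those at 0 in every library. In bulk RNA, fewer cells with a transcript and less of it in each cell cannot be told apart.

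**Figure D1:**
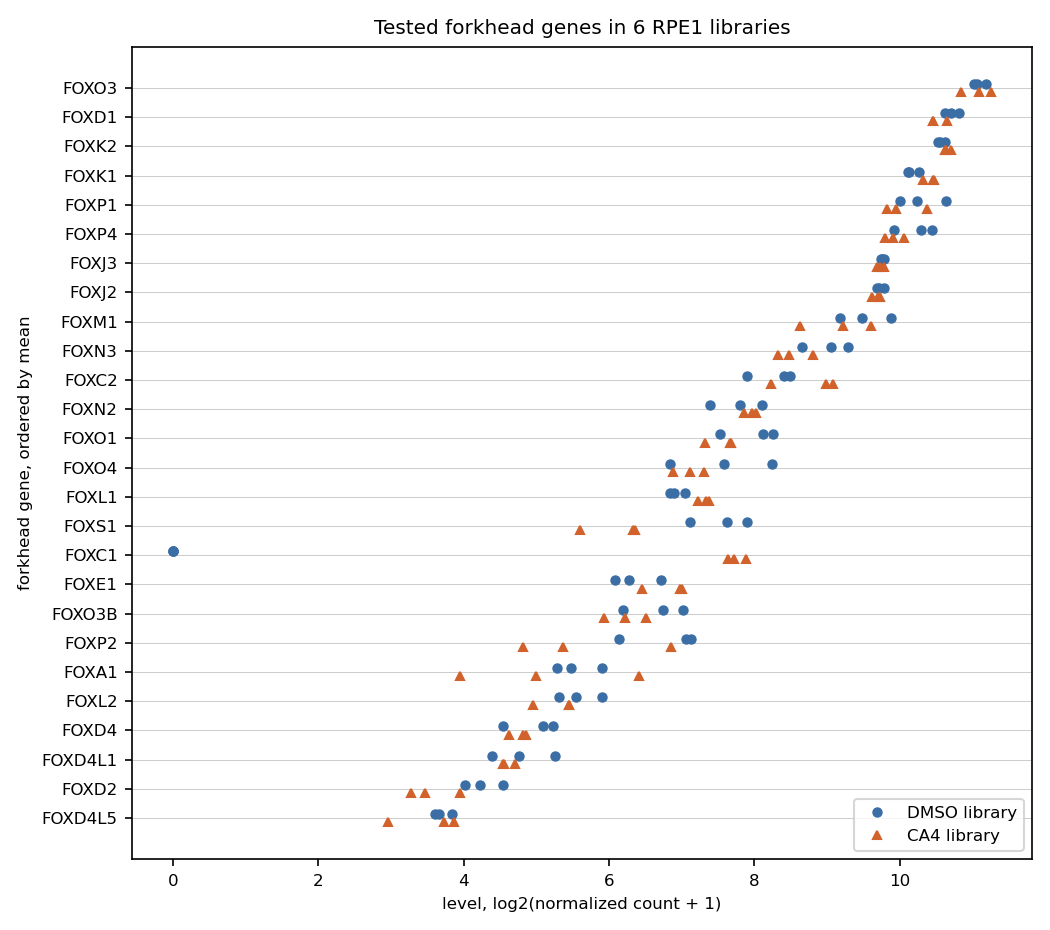
Level of the 26 tested forkhead genes in each library, as log2(normalized count + 1), ordered by the mean over 6 libraries (circles, 3 DMSO libraries; triangles, 3 CA4 libraries). FOXC1 lies at 0 in DMSO and between 197 and 235 normalized counts in CA4, and FOXS1 is the other gene whose groups lie far apart.

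Averaged over all 6 libraries, FOXO3, FOXD1, FOXK2 and FOXK1 had the highest normalized counts of the family, not corrected for length, and few members differed between the groups. Tests were run with limma on log2(normalized count + 1), with Benjamini-Hochberg adjustment across the 13928 tested genes and a threshold of 0.05. By this rule 2 of the 26 members (7.69%) passed, FOXC1 higher and FOXS1 lower in CA4. Over all tested genes the same rule called 4.94%, with 2.97% higher and 1.97% lower, so the members' share is near the background. FOXC1 reached the mean of 10 through its CA4 libraries alone and its zeros in DMSO were known when the family was chosen, so its place in these counts supports nothing. The groups did not overlap in 6 members (23.1%), FOXC1, FOXK1, FOXK2 and FOXL1 higher and FOXS1 and FOXD2 lower in CA4, against 27.7% of all tested genes. Of the 25 tested members other than FOXC1, 19 had a negative and 6 a positive fitted log2 fold change, with a median of -0.20 against -0.01 over all tested genes. With libraries brought to 1 common total the all-gene median moved to -0.11, and 279 genes were called higher and 523 lower against 413 and 275, so the sign of a small change depends on the scaling. The members moved down as well, such as FOXN3 from -0.46 to -0.56, and FOXK2 was the 1 member whose sign turned, to -0.01.

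FOXC1 is a single-exon gene at chr6:1609972-1613897 on the plus strand (GRCh38, GENCODE 29). It was listed at 0 reads in DMSO replicates 1, 2 and 3 and at 243, 176 and 189 reads in CA4 replicates 1, 2 and 3. In normalized counts the CA4 libraries stood at 235, 197 and 211. The groups were entirely apart and the CA4 libraries lay close together. These values are a description, and no fold change or p is given, because the DMSO level is a listed 0 and the gene entered the test through the CA4 group.

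Exact zeros beside high counts occurred in other rows too. In 21 IDs some libraries were at 0 while every library that was not at 0 held 100 or more reads, and for most of these IDs no symbol was found. The 3 with a symbol were FOXC1, AMER1 and SKIC2, the last 2 named here after their values were seen. AMER1, a regulator of WNT signalling, was at 0 in 4 libraries, all 3 of DMSO and CA4 replicate 1, with 162 and 202 reads in CA4 replicates 2 and 3. SKIC2, an RNA helicase of the SKI complex found in every cell, was at 0 in CA4 replicate 3 and had 149 to 392 reads in the other 5 libraries. FOXC1 was the 1 ID of the 21 whose zeros filled exactly 1 group. Whether its zeros are failed estimates was not tested.

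FOXC1 lies in a cluster with FOXQ1 and FOXF2 that spans 301 kb of chromosome 6. The other members there were at the edge of detection. FOXF2, a mesenchymal factor, had 9, 9 and 3 reads in DMSO and 9, 8 and 0 in CA4, and FOXQ1, an epithelial factor, had 1, 2 and 0 reads in DMSO and 0, 2 and 0 in CA4. Of the 10 RefSeq genes nearest to FOXC1, 5 on each side, GMDS was the 1 with a row matched in the table. GMDS, an enzyme of fucose metabolism whose gene is next to FOXC1, went from 304 ± 31.4 to 396 ± 72.7 normalized counts, which limma put at 0.37 on the log2 scale (SE 0.17; adjusted p 0.247). Its CA4 range, 315 to 457, overlapped the DMSO range of 268 to 323, so the neighbour did not show the split seen in FOXC1. No other gene of GENCODE 29 has an exon that overlaps those of FOXC1, and FOXC2 was the gene with which it shared most 50-base words (0.516%).

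The 250 bases upstream of the FOXC1 start in RefSeq (GRCh38.p14, chr6:1609665-1609914, plus strand) are printed because of the split in its reads between the groups. Capitals mark matches to the SP1 box GGGCGG, here both on the plus strand.
FOXC1 upstream: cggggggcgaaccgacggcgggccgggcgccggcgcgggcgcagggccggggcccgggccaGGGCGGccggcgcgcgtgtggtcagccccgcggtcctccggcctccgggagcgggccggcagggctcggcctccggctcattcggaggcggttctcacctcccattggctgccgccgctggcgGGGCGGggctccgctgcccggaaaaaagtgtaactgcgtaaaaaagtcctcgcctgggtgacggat
The window is 76.8% G and C, against a median of 58% over the 35116 windows of the same length in the table. On both strands, without overlap between motifs, it held 2 SP1 boxes, a motif present in 42.6% of all windows. The TEAD motif GGAATG (11.9% of all windows), the AP-1 motif TGANTCA (6.57%), the forkhead motif TGTTTAC (2.98%), the TATA box TATAAA (10.7%), the SRF CArG box (1.16%) and the NF-kB motif (5.21%) had no match in these letters.

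FOXS1, a small single-exon gene at chr20:31844301-31845619 known from perivascular cells and early sensory neurons, was the member that fell. Its DMSO libraries stood at 137, 237 and 197 normalized counts and its CA4 libraries at 47.4, 79.7 and 81.4, replicates 1 to 3 in turn. Every CA4 library lay below every DMSO library, and replicate 1 was the lowest of each group. The means were 190 ± 50.4 and 69.5 ± 19.2, so that CA4 stood at 0.367 times the fitted DMSO level. The log2 difference was -1.45 ± 0.29 (SE), with an adjusted p of 0.0371 in limma. The direction was the same in each alternative, but the call was lost without the variance trend (limma adjusted p = 0.0796) and in most fits without a library. The limma adjusted p was 0.138 without DMSO replicate 2, 0.139 without DMSO replicate 3, 0.0937, 0.0606 and 0.0842 without CA4 replicates 1, 2 and 3, and 0.0259 without DMSO replicate 1. FOXS1 shared 0% of its 50-base words with other genes, and no other gene's exons overlap it in GENCODE 29.

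**Figure D2:**
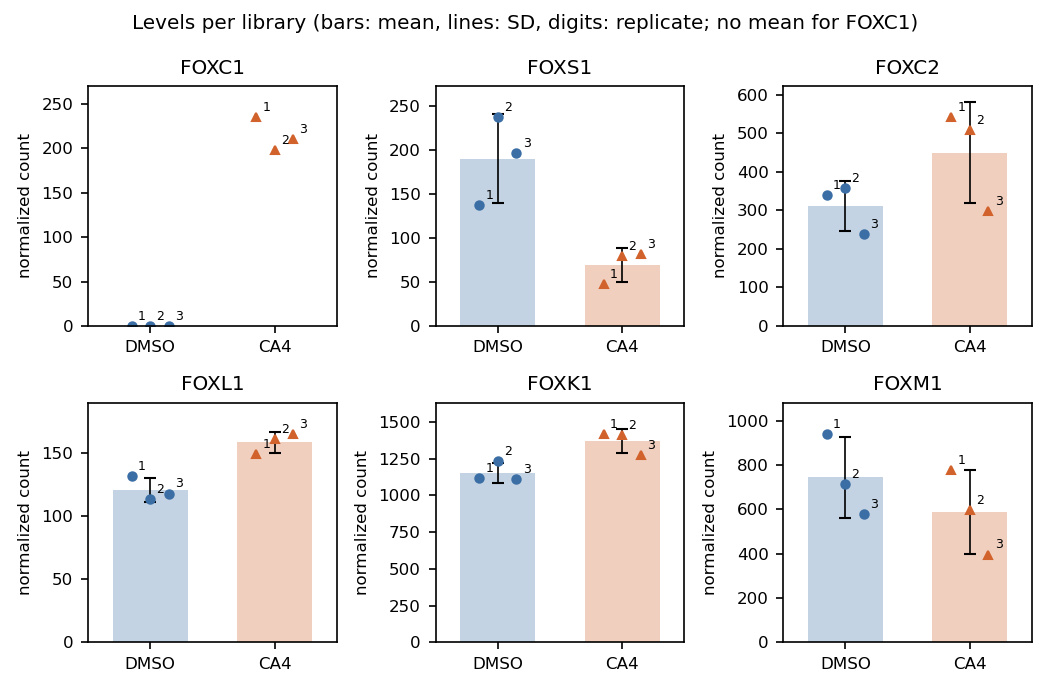
Normalized counts of 6 forkhead genes in each library, on linear axes that start at 0 (circles, DMSO; triangles, CA4; digits, replicate numbers; bars, means of 3 libraries; lines, SD; FOXC1 has points only). FOXC1, FOXS1, FOXL1 and FOXK1 show no overlap between groups, while FOXC2 and FOXM1 do.

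FOXC2, the close relative of FOXC1 that acts in lymphatic vessels and mesenchyme, was expressed in both groups. It stood at 339, 358 and 238 normalized counts in DMSO and 541, 507 and 299 in CA4. Replicate 3 was the lowest of each group, and in CA4 it fell within the DMSO range. The log2 fold change was 0.50 (SE 0.26; adjusted p 0.301 in limma). FOXC2 lies at chr16:86566829-86569728, in a cluster of 71.6 kb with FOXF1 and FOXL1.

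FOXL1, a factor of the mesenchyme under the gut epithelium, stood at 131, 113 and 118 normalized counts in DMSO and at 149, 160 and 165 in CA4. Its groups did not overlap and the spread in each was narrow, but the log2 difference, 0.39 with an SE of 0.15, did not pass in limma (adjusted p 0.186). FOXF1, a factor of lung and gut mesenchyme that was too low to be tested, had 1, 2 and 2 reads in DMSO and 6, 5 and 11 in CA4. The sum of these 3 genes was 434 ± 65.9 normalized counts in DMSO and 615 ± 121 in CA4, a description of genes grouped by position, with no test.

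FOXK1 and FOXK2, repressors of autophagy genes that also act on glycolysis, were among the most read members. FOXK1 stood at 1120, 1234 and 1112 normalized counts in DMSO and 1420, 1411 and 1275 in CA4, with no overlap. Its log2 fold change was 0.24 (SE 0.09; adjusted p 0.164 in limma). FOXK2 stood at 1505, 1478 and 1571 in DMSO and 1581, 1671 and 1595 in CA4, again with the groups just apart, and its log2 fold change was 0.09 with a 95% interval from -0.09 to 0.27 (limma adjusted p = 0.532). With libraries brought to 1 common total it was -0.01, so FOXK2 has no firm direction.

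The FOXO genes did not pass the test. FOXO3, the most read member, stood at 2324, 2150 and 2072 normalized counts in DMSO and 2449, 2181 and 1832 in CA4. The CA4 range held the whole DMSO range, and the log2 fold change was -0.03 with a 95% interval from -0.30 to 0.25 (limma adjusted p = 0.923). FOXO1 stood at 183, 304 and 276 in DMSO and 159, 203 and 203 in CA4, which limma put at -0.41 on the log2 scale (SE 0.22; adjusted p 0.317). FOXO4 stood at 114, 303 and 191 in DMSO and 117, 157 and 137 in CA4, at a log2 difference of -0.46 ± 0.34 (SE) and an adjusted p of 0.462 in limma. In both genes DMSO replicate 1 was the lowest of its group, within the CA4 range for FOXO1 and just below it for FOXO4. Single libraries moved FOXO4 from -0.82 without DMSO replicate 1 to -0.12 without DMSO replicate 2. FOXO6, a member found mainly in brain, had 5, 13 and 9 reads in DMSO and 0, 9 and 0 in CA4.

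FOXO3B is a processed copy of FOXO3 and its reads cannot be cleanly told from those of FOXO3. The same 60-base window is shown for both because it differs at 1 base, given in capitals.
FOXO3: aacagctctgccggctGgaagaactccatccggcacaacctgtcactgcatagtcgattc
FOXO3B: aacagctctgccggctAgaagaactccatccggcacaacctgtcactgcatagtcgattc
FOXO3B stood at 72.4, 106 and 128 normalized counts in DMSO and 59.9, 89.8 and 73.6 in CA4. The groups overlapped, and limma put the difference at -0.43 on the log2 scale (SE 0.27; adjusted p 0.394). Added to FOXO3 it left the sum at 2284 ± 101 in DMSO and 2229 ± 304 in CA4.

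FOXM1, the driver of mitotic genes, was read in all libraries of these confluent cells. It stood at 941, 712 and 578 normalized counts in DMSO and 776, 596 and 396 in CA4. The groups overlapped over most of their range, and replicate 1 was the highest and replicate 3 the lowest of each. Each CA4 library stood below the DMSO library of the same number, though the labels do not tie these numbers to a culture. The log2 fold change of -0.36 (SE 0.27) did not pass in limma (adjusted p 0.47), and it ran from -0.59 without CA4 replicate 1 to -0.10 without CA4 replicate 3. Exons of ITFG2 on the opposite strand cover 15.9% of the exon bases of FOXM1 in GENCODE 29, and the use of strand in counting is not known here. FOXN3, a repressor of proliferation genes, stood at 403, 622 and 532 in DMSO and 321, 447 and 354 in CA4, at a log2 difference of -0.46 ± 0.19 (SE) and an adjusted p of 0.208 in limma. Its ranges overlapped through DMSO replicate 1, the lowest of its group. FOXN2, a relative of FOXN3, stood at 273, 167 and 222 in DMSO and 249, 230 and 260 in CA4. All CA4 libraries lay within the DMSO range, and the log2 fold change was 0.18 (SE 0.19; adjusted p 0.623 in limma).

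**Figure D3:**
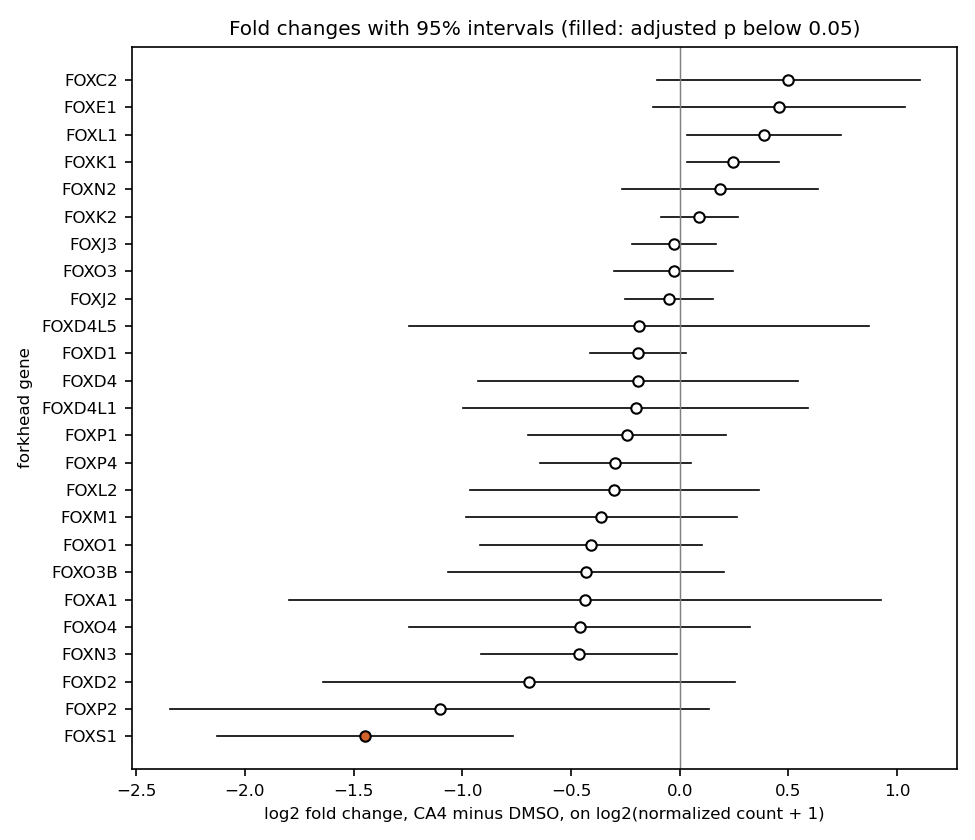
Log2 fold change, CA4 minus DMSO, of 25 tested forkhead genes with its 95% interval from limma (filled point, adjusted p below 0.05; FOXC1 is left out because it is listed at 0 in DMSO). FOXS1 at -1.45 is the 1 filled point, and 19 of the 25 points lie below 0.

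FOXP factors carry a zinc finger beside the forkhead domain. FOXP1 stood at 1029, 1207 and 1586 normalized counts in DMSO and 985, 1332 and 905 in CA4, and FOXP4 at 966, 1400 and 1249 in DMSO and 889, 1069 and 960 in CA4. Their log2 fold changes were -0.24 (SE 0.20) and -0.30 (SE 0.15), with limma adjusted p-values of 0.509 and 0.289. FOXP2, known from speech development, stood at 69.5, 139 and 133 in DMSO and 27.1, 114 and 40.1 in CA4. CA4 replicate 2 stood near the DMSO libraries, and the log2 fold change of -1.10 (SE 0.53) did not pass in limma (adjusted p 0.268). With 1 library left out the log2 fold change of FOXP2 ran from -1.69 without that library (limma adjusted p = 0.07) to -0.67 without CA4 replicate 1 (limma adjusted p = 0.552). FOXA1, which opens chromatin in endodermal tissues, showed the same library as its highest, with 43.5, 58.9 and 38 in DMSO and 30.9, 84.2 and 14.5 in CA4. All DMSO libraries lay within the CA4 range, and the log2 fold change was -0.43 (SE 0.58; adjusted p 0.708 in limma).

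FOXD1, a stromal factor that also patterns the embryonic retina, stood at 1579, 1805 and 1668 normalized counts in DMSO and 1612, 1411 and 1402 in CA4. The groups overlapped through CA4 replicate 1 alone, and the log2 fold change was -0.19 (SE 0.10; adjusted p 0.283 in limma). Exons of FOXD1-AS1, on the other strand, cover 16.2% of those of FOXD1. FOXD2 stood far lower, at 22.2, 17.8 and 15.2 in DMSO and 8.70, 10.1 and 14.5 in CA4, with the groups just apart. Its log2 fold change was -0.69 (SE 0.41; adjusted p 0.359 in limma). FOXD4 and its 5 copies together held 79.4 ± 11.5 normalized counts in DMSO and 67.2 ± 5.77 in CA4. Of these 6 rows 3 were tested, FOXD4 at 22.2, 36.5 and 33.2 in DMSO and 27.1, 23.6 and 27.9 in CA4, FOXD4L1 at 26.1, 37.4 and 19.9 and then 25.1, 22.4 and 22.3, and FOXD4L5 at 11.6, 11.2 and 13.3 and then 13.5, 6.73 and 12.3. All 3 overlapped between groups, with log2 fold changes of -0.19, -0.20 and -0.19. From 58.3% to 63.1% of their 50-base words are also found in other genes, so their separate counts are less firm than the sum of the family.

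FOXJ2 and FOXJ3, broadly expressed relatives of the cilia factor FOXJ1, differed little between libraries. FOXJ3 stood at 863, 856 and 878 normalized counts in DMSO and 823, 880 and 848 in CA4, and FOXJ2 at 837, 881 and 827 in DMSO and 783, 847 and 830 in CA4. Their log2 fold changes were -0.03 and -0.05, with 95% intervals from -0.22 to 0.17 and from -0.25 to 0.15. FOXJ1 itself had no read. FOXE1, a thyroid factor, stood at 76.3, 104 and 66.5 in DMSO and 125, 127 and 86.9 in CA4, and its log2 fold change of 0.46 (SE 0.25) did not pass in limma (adjusted p 0.325). FOXL2, a factor of the ovary, stood at 38.6, 58.9 and 45.6 in DMSO and 42.5, 42.6 and 30.1 in CA4. These groups overlapped at their edges, with a log2 fold change of -0.30 (SE 0.29; adjusted p 0.578 in limma).

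Per kilobase of exon in GENCODE 29, the DMSO level was 642 ± 43.4 for FOXD1 and 283 ± 16.7 for FOXO3, and these 2 ranges did not overlap. FOXP4 followed at 195 ± 35.7, then FOXK2 at 152 ± 4.77, FOXM1 at 152 ± 37.4, FOXS1 at 144 ± 38.2, FOXJ2 at 135 ± 4.52 and FOXJ3 at 126 ± 1.63 normalized counts per kilobase. The ranges of FOXP4, FOXK2, FOXM1 and FOXS1 overlapped, and those of FOXM1 and FOXS1 also held all of FOXJ2 and FOXJ3, so the order below FOXO3 is not settled. In CA4 the level of FOXS1 was 52.7 and that of FOXC1 54.6 normalized counts per kilobase. These lengths take all annotated exons of a gene together, which lowers the level of genes with many transcripts such as FOXP1, with 36714 exon bases.

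Of the 28 members below a mean of 10, 16 had no read in any library. They included FOXA2, FOXA3, FOXB1, FOXB2, FOXD3, FOXI1, FOXI2, FOXJ1, FOXL3, FOXN4, FOXR1, FOXR2, FOXN3P1, FOXN3P2 and FOXO1B, and each 0 allows up to 3 reads in a library. The other 12 did not exceed 12.3 normalized counts in any library. Of those not yet given by library, 3 outside the FOXD4 copies reached 3 normalized counts, FOXH1, a partner of SMAD proteins, with 2, 6 and 5 reads in DMSO and 3, 2 and 0 in CA4, FOXP3, the factor of regulatory T cells, with 4, 2 and 4 and then 4, 0 and 1, and FOXI3 with 0, 0 and 1 and then 1, 4 and 1. The copies FOXD4L3 (0, 7 and 4 reads in DMSO, 0, 0 and 4 in CA4), FOXD4L4 (5, 1 and 1, then 2, 2 and 0) and FOXD4L6 (10, 0 and 0, then 2, 5 and 4) were too low for any comparison. FOXE3, a lens factor, had 2 reads in CA4 replicate 2, and FOXN1, a thymus factor, had 2 in DMSO replicate 2, with 0 in their other libraries. In exon bases 31.6% of FOXH1 also lies in KIFC2 on the opposite strand, a gene with 786 to 1038 normalized counts in these libraries. The member just inside the limit was FOXD4L5, with a mean of 11.4 normalized counts, and the member just outside was FOXF2, with 6.27.

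The libraries of a group were not equally far from the other group. FOXC1, with equal DMSO values, has no nearest one. In 13 of the other 25 tested members DMSO replicate 1 was the DMSO library nearest to the CA4 mean on the log2 scale, and DMSO replicates 2 and 3 were nearest in 6 members each. Over the 13910 tested genes without such a tie the shares were 43.1%, 26.3% and 30.6%, so DMSO replicate 1 lay nearest to CA4 in the table as a whole. Without it limma called the same number of forkhead genes, 2, and the log2 fold change of FOXS1 was -1.66, that of FOXO4 -0.82, that of FOXN3 -0.63 and that of FOXO1 -0.63. The 24 members that did not pass with all libraries did not pass in any fit without 1 library.

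Genes around the FOXO factors moved in both directions. SGK1, a kinase that phosphorylates FOXO3 and keeps it out of the nucleus, stood at 2261, 1650 and 2675 normalized counts in DMSO and 7361, 6983 and 7890 in CA4. Its lowest CA4 library was far above its highest DMSO library, and the log2 fold change was 1.78 (SE 0.17; adjusted p 0.00404 in limma). Of the 22 FOXO regulators on the list, which holds AKT, SGK and PI3 kinase genes, cofactors and the 14-3-3 proteins that hold FOXO in the cytoplasm, SGK1 was the 1 gene that passed and 0 fell, beside 4.94% of all tested genes. At an unadjusted p under 0.05 in limma 3 were higher and 2 lower, beside 23% of all tested genes, so that count is at the background. In edgeR and DESeq2 SGK1 was called higher and 0 lower. The list's median log2 fold change was 0.002.

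Of 31 FOXO targets 24 were tested, and 4 rose and 2 fell in limma, with a median log2 fold change of -0.17. The background is 4.94% called, and the median over all tested genes is -0.01. At an unadjusted p under 0.05 in limma 4 were higher and 7 lower, beside 11.9% and 11% of all tested genes. CDKN1A, the cell cycle inhibitor p21, rose from 4607 ± 227 to 10209 ± 626 normalized counts, and GADD45A, a growth arrest gene, from 1274 ± 187 to 2746 ± 48.2. Both are also known targets of p53, and both stayed past the threshold whichever of the 6 libraries was left out. SOD2, the mitochondrial superoxide dismutase and also a target of NF-kB, rose from 2375 ± 548 to 4448 ± 244, at a log2 difference of 0.93 ± 0.16 (SE) and an adjusted p of 0.0222 in limma. CITED2, a transcriptional coregulator, went from 4181 ± 591 to 6213 ± 680, and its log2 fold change was 0.58 (SE 0.13; adjusted p 0.048 in limma).

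The targets that fell were CCNG2 and SESN3. CITED2 and SESN3 lie outside the rule for named genes and were chosen after their values were seen. CCNG2, a cyclin that slows the cycle, stood at 719, 1198 and 1213 normalized counts in DMSO and 203, 499 and 296 in CA4, at a log2 difference of -1.70 ± 0.34 (SE) and an adjusted p of 0.0356 in limma. SESN3, a stress-induced inhibitor of mTORC1, stood at 48.3, 118 and 174 in DMSO and 19.3, 25.8 and 25.6 in CA4, which limma put at -2.05 on the log2 scale (SE 0.46; adjusted p 0.0493). In both genes DMSO replicate 1 was the DMSO library nearest to CA4. The calls of SOD2, CITED2, CCNG2 and SESN3 were lost in most fits with 1 library left out, though their groups did not overlap. In such fits the number of calls over all tested genes also moved, from 688 to between 81 and 994. SOD2 and SESN3 each held without DMSO replicate 1 alone, CCNG2 without DMSO replicate 1 or CA4 replicate 2, and CITED2 in none of the 6 fits, and all 4 calls were lost without the variance trend. In edgeR 3 targets were higher and 2 lower, beside 2.8% and 1.82% of all genes. In DESeq2 4 were higher and 4 lower, beside 6.92% and 5.39%.

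**Figure D4:**
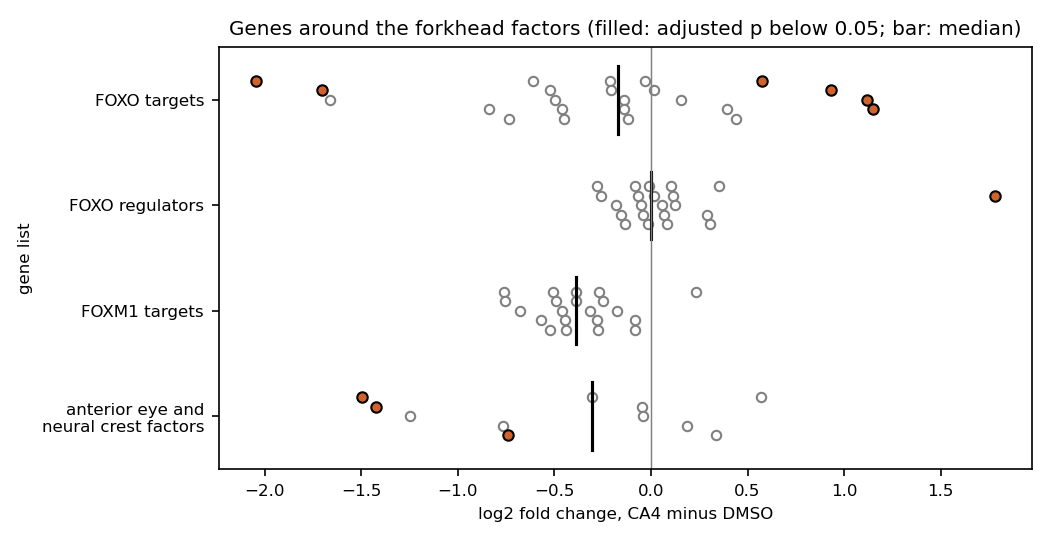
Log2 fold change, CA4 minus DMSO, of the tested genes of 4 lists, 1 point for each gene (filled, limma adjusted p below 0.05; black bar, median of the list; points are spread vertically to keep them apart). SGK1 stands apart from the other FOXO regulators at 1.78, FOXO targets lie on both sides of 0, and 20 of the 21 FOXM1 targets lie below 0 without a filled point.

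All 21 FOXM1 targets on the list, mitotic genes such as PLK1, CCNB1 and TOP2A, were abundant enough to be tested. Of these 20 had a negative and 1 a positive fitted value, with a median of -0.39, against -0.01 over all tested genes. In limma, edgeR and DESeq2 0 passed, where these tools called 4.94%, 4.62% and 12.3% of all genes. At an unadjusted p under 0.05 in limma 2 were lower, beside 11% of all tested genes. The mean of log2(normalized count + 1) over the 21 genes was 9.03, 8.19 and 7.92 in DMSO and 8.63, 8.04 and 7.35 in CA4 for replicates 1, 2 and 3. As in FOXM1, replicate 1 was the highest and replicate 3 the lowest of each group, and the groups overlapped.

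Factors of the front of the eye and the neural crest, the setting in which FOXC1 is best known, gave 3 genes that fell and 0 that rose among 11 tested of 15, with a median log2 fold change of -0.30. Over all tested genes 1.97% were called lower and the median was -0.01. At an unadjusted p under 0.05 in limma 1 was higher and 3 lower, beside 11.9% and 11% of all tested genes. In edgeR 2 were lower and 0 higher, and in DESeq2 3 and 0, where these tools called 1.82% and 5.39% of all genes lower. BMP4, a secreted growth factor, went from 773 ± 150 to 278 ± 91.2 normalized counts, at a log2 difference of -1.50 ± 0.24 (SE) and an adjusted p of 0.0199 in limma. CYP1B1, a cytochrome P450 whose loss causes congenital glaucoma, went from 3708 ± 564 to 1410 ± 415, which limma put at -1.42 on the log2 scale (SE 0.22; adjusted p 0.0168). PAX6, the master regulator of eye development, went from 1244 ± 171 to 748 ± 138, at a log2 difference of -0.74 ± 0.16 (SE) and an adjusted p of 0.0483 in limma. In each of these genes the groups did not overlap. The calls of BMP4 and PAX6 held without DMSO replicate 1 or CA4 replicate 2, that of CYP1B1 also without CA4 replicate 1, and none in the other fits without a library or without the variance trend.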

How the data were processed

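Each deposited value is a signal: reads of a gene over a size factor that the authors set per library. Per the submitters' processing notes, Trim Galore 0.6.6, FastQC 0.12.1, Salmon 1.8.0, STAR 2.7.9a, DESeq2 1.44.0 and GRCh38 were used; their roles, the annotation release and the use of strand are not given in the sources used here. Dividing by the smallest step of a column returned whole reads for 100% of values (tolerance 0.01). These may be rounded Salmon estimates.

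A symbol entry was found for 35832 of 38900 IDs, 35803 of them in a gene name table and the others in GENCODE 29; in 5830 the entry is the ID itself, which no symbol rule can match. The 13928 genes that averaged 10 or more normalized counts were fitted on log2(normalized count + 1), which understates changes of low genes, with limma 3.58.1 in R 4.3.3, treatment as the only term and a mean trend. Alternatives were pseudocounts of 0.1 and 5, no filter, a mean of at least 50, 2 scalings, no trend, edgeR 4.0.16 (quasi-likelihood, TMM) and DESeq2 1.42.0 on recovered reads, a block for the replicate number, and omission of single libraries. The recovered reads gave 643 calls in edgeR and 1613 in DESeq2. On simulated data with 200 of 13928 genes changed 2-fold, limma found 66.5% of them and 2.21% of what it called was false, edgeR 68% and 3.55%, and DESeq2 70% and 9.68%, a false share above the threshold of 5%. The simulation set the spread of each gene by its mean level alone and held no replicate effect, so these shares need not hold for the real libraries.

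All forkhead rows were analysed, and a few items are not reported here. From each pathway list up to 4 genes past the threshold with the smallest adjusted p are named. Markers of endothelium (5 of 5 tested), mesenchyme (9 of 9) and neurons (3 of 5) were also checked: limma called 0, 2 (PDGFRA, TWIST1) and 1 (TUBB3, a tubulin gene), all lower, beside 4.94% of all tested genes. The other tested neuron genes, SNAP25 and SYP, had log2 fold changes of 0.60 and 0.28 and did not pass. At an unadjusted p under 0.05, 1 endothelial gene was higher, beside 23% of all tested genes, and edgeR and DESeq2 called 0 in that list. The median log2 fold change of the endothelial list was 0.64, with 3 genes fitted higher and 2 lower. CA4 replicate 3 was the highest CA4 library for PECAM1, CDH5, VWF and KDR, but not for TEK. VWF stood at 805, 717 and 1732 in CA4. DESeq2 gave 13105 genes an adjusted p. Members and lists were chosen with earlier results of these data known.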

Additional observations from a re-analysis of the deposited data

How the results depend on the processing

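The number of forkhead genes past the threshold was 2 in 8 of the 10 alternatives that keep all libraries. It was 1 without the variance trend, where FOXS1 had a limma adjusted p of 0.0796, and it ran from 1 to 2 when 1 library was left out. Over all tested genes the count of 688 fell to 103 without the trend, rose to 1613 in DESeq2 on recovered reads, and ran from 81 (without DMSO replicate 3) to 994 (without DMSO replicate 1) when 1 library was left out. Scaling to 1 common total called 279 genes higher and 523 lower, against 413 and 275. With the replicate number as a block limma called 2397 genes and 4 forkhead genes, adding FOXC2 (adjusted p = 0.0303) and FOXN3 (adjusted p = 0.0275). In that fit FOXM1 had a limma adjusted p of 0.0502 and FOXP2 of 0.0538, and neither passed. The block called 5 of the 21 FOXM1 targets lower and 0 higher, against 0 without it. Of the 24 tested FOXO targets it called 4 higher and 8 lower, against 4 and 2. Of the 22 FOXO regulators it called 1 higher and 1 lower, against 1 and 0. Of the 11 tested eye and neural crest factors it called 1 higher and 3 lower, against 0 and 3. Over all 13928 tested genes the block called 1260 higher and 1137 lower, against 413 and 275. The deviations of same-numbered libraries from their group means correlated at 0.202, 0.159 and 0.0588, not all above 0.1. CA4 replicate 3 correlated best with DMSO replicate 2 (0.0741) and the other libraries with their own number. The labels tie no number to a culture or day, so the libraries were not treated as paired.

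Signs turned in 6 uncalled members. FOXK2 was at -0.011 with libraries brought to 1 common total. With 1 library left out, FOXO3 ran from -0.125 to 0.085, FOXA1 from -1.08 to 0.15, FOXN2 from -0.0023 to 0.35, FOXD4L1 from -0.41 to 0.026 and FOXD4L5 from -0.36 to 0.094. Members with few reads, such as FOXF1, FOXF2 and FOXO6, were not tested at these depths.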
